A study of Mus musculus with 33 samples.

Results

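The regions described here are stretches of the mouse genome that lie outside every RefSeq gene, within 10000 bases of the edge of a protein-coding gene, and that gave RNA in CH12 cells. They were taken from 49745 numbered regions in the authors' quantification tables, of which 18652 overlapped no RefSeq gene. The rule kept a region whose estimated counts summed to at least 50 over 24 RNA-seq libraries, and it left 2359 gene-flanking regions. By the strand of the nearest gene, 875 lay upstream and 987 downstream, and for 497 the strand was not in the gene table used. The regions were chosen by their measured counts, summed over all libraries, so the presence of RNA in them is a description. CH12 cells are mouse B lymphoma cells with surface IgM, and in culture they can switch to IgA. Libraries came from ZMYND8 KO1 and ZMYND8 KO2, which the labels call clones lacking ZMYND8, and from WT cells and a WT clone. ZMYND8 is a reader of modified histone tails. Each line was grown for 48 h, activated or unactivated, in 3 biological repeats, which gave 8 groups of 3 libraries, or 6 per genotype and state. The activating stimulus and the deleted part of Zmynd8 are not named in the labels. Each KO line is 1 clone, so differences between single clones are part of every comparison of genotypes.

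RNA polymerase II transcribes beyond the ends of genes. Downstream of a gene, it runs past the polyadenylation site before it is released. Upstream, divergent transcription from the promoter and transcription of nearby enhancers give mostly short-lived noncoding RNA. In total RNA without poly(A) selection all of these can be seen, together with introns and ends of unannotated transcripts, and the host transcripts of microRNAs, which are cut in the nucleus. The tables do not separate these sources.

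Sequence is shown first for the regions beside microRNA genes, since the regions described below next to Mir142 and Mir155 differed between genotypes. A hairpin of RefSeq (GRCm38.p6) lay under 10000 bases from 44 of the regions, 27 of which were tested and 7 of which were called in at least 1 comparison. The same share over all tested regions was not worked out, so 7 of 27 cannot be called many or few. The mature sequences are written 5′ to 3′, with the seed, bases 2 to 8, in capitals. The 4 sequences have 4 different seeds.
miR-142a-5p: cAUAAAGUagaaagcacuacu
miR-142a-3p: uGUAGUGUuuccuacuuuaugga
miR-155-5p: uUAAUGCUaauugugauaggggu
miR-155-3p: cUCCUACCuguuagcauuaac
These lie at chr11:87756867-87756887 and chr11:87756903-87756925 for the miR-142a arms, and at chr16:84714143-84714165 and chr16:84714182-84714202 for the miR-155 arms, all on the plus strand. The microRNAs themselves were not measured, since libraries of this kind do not capture them.

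Promoters are shown for 4 genes whose flanking regions carried the results, Sorl1, Atp2a3, H2-Aa and Bcl2a1b. Each window holds 300 bases around the gene start, on the strand of the gene, from RefSeq (GRCm38.p6). Of the 2 windows listed for Sorl1, the one nearer the region is shown. Capitals mark matches to the motifs searched, on either strand, which were GGGACTTTC for kappa B, TGANTCA for AP-1, ATGCAAAT for the octamer, CAGCTG for an E-box, GAGGAAGT for PU.1, GGGGCGGGG for SP/KLF and AATAAA for the poly(A) signal.
Sorl1: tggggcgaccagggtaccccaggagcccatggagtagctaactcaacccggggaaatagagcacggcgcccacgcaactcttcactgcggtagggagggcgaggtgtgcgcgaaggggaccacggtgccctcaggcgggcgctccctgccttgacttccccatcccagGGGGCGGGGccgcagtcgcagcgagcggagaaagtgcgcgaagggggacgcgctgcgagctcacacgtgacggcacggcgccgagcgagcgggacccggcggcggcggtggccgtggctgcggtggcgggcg
Atp2a3: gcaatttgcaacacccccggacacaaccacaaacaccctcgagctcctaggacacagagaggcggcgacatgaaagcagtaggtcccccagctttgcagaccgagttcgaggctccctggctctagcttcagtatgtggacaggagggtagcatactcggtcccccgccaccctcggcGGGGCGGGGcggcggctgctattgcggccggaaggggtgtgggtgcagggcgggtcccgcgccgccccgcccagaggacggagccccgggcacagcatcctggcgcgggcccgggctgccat
H2-Aa: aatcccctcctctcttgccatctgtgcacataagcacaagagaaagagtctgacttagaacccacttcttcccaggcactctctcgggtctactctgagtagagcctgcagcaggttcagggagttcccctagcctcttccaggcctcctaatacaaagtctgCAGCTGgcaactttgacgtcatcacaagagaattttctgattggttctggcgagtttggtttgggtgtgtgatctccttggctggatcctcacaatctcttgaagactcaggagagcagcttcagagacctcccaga
Bcl2a1b: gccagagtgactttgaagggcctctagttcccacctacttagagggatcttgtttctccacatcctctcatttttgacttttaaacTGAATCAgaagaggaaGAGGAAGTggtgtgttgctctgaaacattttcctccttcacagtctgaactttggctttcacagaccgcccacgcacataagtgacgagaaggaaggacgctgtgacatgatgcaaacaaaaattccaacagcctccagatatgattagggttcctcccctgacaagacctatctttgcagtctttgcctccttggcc
The windows are chr9:42124248-42124547 (minus strand) for Sorl1, chr11:72960919-72961218 (plus) for Atp2a3, chr17:34287774-34288073 (minus) for H2-Aa and chr9:89199023-89199322 (plus) for Bcl2a1b. Sorl1 held SP/KLF at bases 169 to 177 and Atp2a3 at bases 179 to 187, counted from the 5′ end of the window, a motif found in 11.4% of all 32851 windows. H2-Aa held the E-box at bases 164 to 169, which 16.3% of windows hold. Bcl2a1b held AP-1 at bases 87 to 93, found in 7.81% of windows, and the PU.1 motif at bases 103 to 110, found in 3.2%, with no overlap between them. Among promoters of the genes next to upstream regions, 1051 windows, kappa B was present in 8, or 0.761%, against 0.353% of all windows. Among the 1225 windows of genes next to downstream regions it was present in 0. SP/KLF was in 20.1% of the upstream genes' windows and 17.7% of the downstream genes' windows, and their median GC content was 59% on each side, against 52.7% for all windows.

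The regions were short and mostly faint. Their width ran between 251 and 14227 bases with a median of 1075. The mean level over the 24 libraries ran between 0.0621 and 145 CPM (estimated counts scaled to library size, per M), with a median of 0.174, and the median per length was 0.154 CPM per kb. Downstream regions lay closer to their gene, at a median of 2727 bases, and upstream regions at 3813. Under 500 bases from the gene lay 113 downstream regions, or 11.4% of that side, and 6 upstream regions, or 0.686% of theirs. The same asymmetry held before the minimum on counts, with 9.75% of 2472 downstream and 1.23% of 2281 upstream regions. How the authors defined their regions is not given in the sources used here, and its part in this asymmetry was not tested. Of the 2144 nearest genes, 201 had more than 1 region and the most at 1 gene was 4. Another protein-coding gene lay within 10000 bases on the other side of 581 regions, and a noncoding gene or pseudogene was nearer than the protein-coding gene for 355, most often a lncRNA, in 227.

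**Figure D1:**
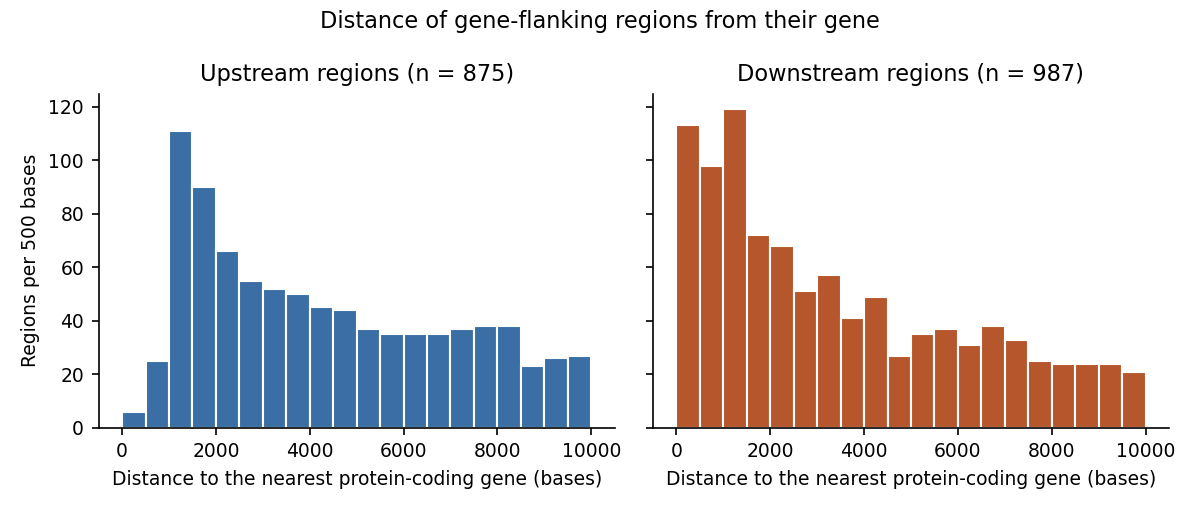
Distance in bases from the nearest protein-coding gene for 875 upstream and 987 downstream regions, in bars of 500 bases. The first bar holds 6 upstream and 113 downstream regions.

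RNA was concentrated in few of them. The region with the most counts, downstream of Tmco1, held 11.2% of the counts of all 2359, the first 10 held 28.5% and the first 100 held 51.8%. At the limits of the rule, regions by Phlpp1 and Ifnar1 had 50.0 counts and were kept, and regions by Tom1 and Noc4l had 49.9 and were not. Regions by Vnn3 and Wdr1, at 9998 and 9995 bases, were kept, and those by Ddit4 and Col9a2, at 10007 and 10014 bases, were not. Of the 2359, 1128 passed the filter on low counts and were tested, 414 upstream, 482 downstream and 232 without a side. The other 1231 had totals between 50 and 177 and enter no count of calls. A region that passed because 1 group was high could pass only by differing, so shares among tested regions are not shares of all regions. Those by Sorl1, Zfp449, Asb2, Tmem45a2, Alpk2, Cd93 and Rb1cc1 would not have passed on WT libraries alone, nor that by Gnat3 on KO libraries alone. Those by Slc10a7, Otulin, Skap2, Skil, Btg1 and Bcl2a1b would not have passed on unactivated libraries alone. Those by Pdcd1, Rgs13 and Cd300a would not have passed on activated libraries alone.

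The libraries held between 28.99 and 34.07 M estimated counts, of which numbered regions took 3.78% to 5.48% and the gene-flanking regions 0.103% to 0.164%. RNA inside Zmynd8, summed over regions within the gene, was 1.62 to 2.64 CPM in unactivated KO and 1.23 to 1.97 CPM in unactivated WT libraries, and 2.83 to 4.27 CPM in activated KO and 2.02 to 3.22 CPM in activated WT libraries. Since the deleted part is not named, these values do not check the knockout. For B cell markers, 5 of 9 had regions inside them and all 5 gave RNA, which summed to 29.8 to 43.6 CPM in unactivated KO, 17.3 to 41.8 in unactivated WT, 50.6 to 67.9 in activated KO and 33.3 to 53.8 CPM in activated WT libraries. The single T cell marker with regions, Lck, was at 0.423 to 0.749 CPM in unactivated KO and 0.189 to 0.334 CPM in unactivated WT libraries, and at 0.334 to 0.815 CPM in activated KO and 0.152 to 0.297 CPM in activated WT libraries. KO libraries lay above WT libraries in both states. All libraries were labelled as CH12 cells, and RNA of this single gene does not measure a share of T cells. What underlies the difference was not tested. The 3 myeloid markers with regions stayed at or under 1.23 CPM and the stromal markers at or under 1.66 CPM in every library. Cd3e, Cd3d, Cd3g, Cd4, Cd8a, Lyz2 and Col1a1 were at 0 or had no region. In 3 WT libraries (unactivated replicate 3, activated replicate 2 and WT clone unactivated replicate 2) values stood apart from the rest on the second axis of a multidimensional scaling. The region downstream of Tmco1 (chr1:167337278-167341667) was at 204.6, 285.9 and 549.6 CPM in these 3, but also at 240.2 and 354.8 CPM in 2 other activated WT libraries, with 52.9 to 184.6 CPM in KO libraries and 66.5 to 103.8 CPM in the other WT libraries. Results that lose their call without these 3 libraries are named where they occur.

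The first question was whether loss of ZMYND8 changed RNA in the regions of unactivated cells. In KO against WT lines, 49 of 1128 tested regions were called higher, or 4.34%, and 26 lower, or 2.3%, at an adjusted p under 0.05 (edgeR's quasi-likelihood test, Benjamini-Hochberg adjustment over 61074 targets). The background was 3.13% higher and 4.03% lower for all targets, and 3.75% higher and 2.64% lower for all 11264 numbered regions tested, so the share called was near that of regions in general. The median log2 change was -0.01, against -0.03 over all regions tested. Upstream regions were called higher in 19 and lower in 7 of 414, and downstream regions higher in 11 and lower in 16 of 482. Regions without a side were called higher in 19 of 232, or 8.19%, and lower in 3, or 1.29%. Regions 10 to 50 kb from a gene were called higher in 4.59% and lower in 3.34% of 958. The difference between sides was not tested. The called changes ran between 0.56 and 3.86 upwards, 34 of 49 at 2-fold or more, and between -3.4 and -0.62 downwards, 17 of 26 at 2-fold or more. In every pairing of a KO with a WT line, 11 regions were called higher and 1 lower. The same share over all numbered regions was not worked out, so these counts cannot be called many or few.

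In activated cells, 56 regions, 4.96%, were called higher in KO and 12, 1.06%, lower. The background was 3.51% higher and 3.02% lower for all targets and 5.67% higher and 1.35% lower for numbered regions. The median log2 change was 0.11, against 0.09 over all regions tested and 0 over all targets. On the upstream side 22 of 414 were higher and 2 lower, and on the downstream side 15 of 482 were higher and 7 lower. Without a side, 19 of 232 were higher, or 8.19%, and 3 lower, or 1.29%. Of the regions called higher, 29 were called higher in both states, which is 59.2% of those called in unactivated and 51.8% of those called in activated cells. Of those called lower, 6 were shared, 23.1% of the unactivated and 50% of the activated calls. This overlap was not worked out for all numbered regions, so it is not shown to be particular to regions near genes. Between the 2 lines of 1 genotype, at most 3 regions were called in any state, but those tests rest on 3 libraries a side. The summed level of the 875 upstream regions was 444.9 ± 13.9 CPM in activated KO and 395.3 ± 11 CPM in activated WT libraries, and 378.1 ± 15.8 CPM in unactivated KO and 389.3 ± 12.4 CPM in unactivated WT libraries (SD, n = 6). For the 987 downstream regions it was 634.7 ± 26.9 CPM in activated KO and 694.5 ± 115.1 CPM in activated WT libraries, or 529.3 ± 19.3 CPM in activated KO and 500.3 ± 28.9 CPM in activated WT libraries without the region by Tmco1. For all 2359 it was 1352.1 ± 36.3 CPM in activated KO and 1317 ± 104 CPM in activated WT libraries. Without the regions by Tmco1 it was 1246.6 ± 41.3 CPM in activated KO and 1122.7 ± 34.2 CPM in activated WT libraries, without overlap. In unactivated libraries it was then 1072.5 ± 47.4 CPM in KO and 1095 ± 74.1 CPM in WT, with overlap. These sums were not tested.

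**Figure D2:**
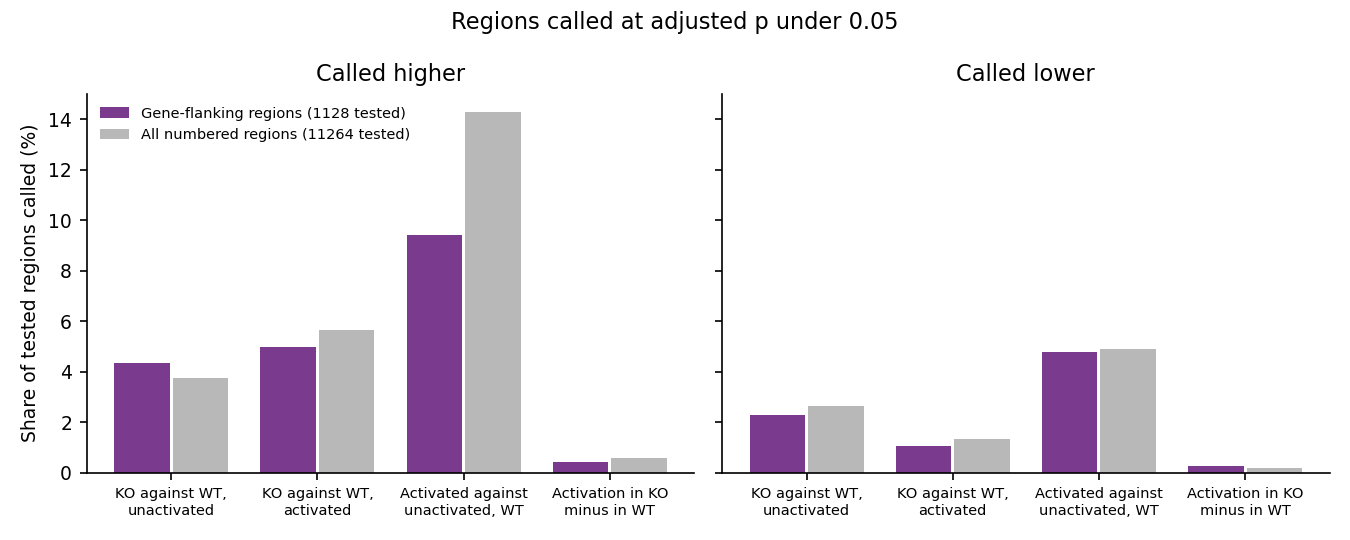
Share of tested regions called higher (left) or lower (right) in 4 comparisons, for 1128 gene-flanking regions and for all 11264 numbered regions. The bars of a pair lie near each other except for activation, where 9.4% of the gene-flanking and 14.3% of all regions were called higher.

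The region with the largest change in unactivated KO lines lay downstream of Chst3 (chr10:60165989-60172001), a sulfotransferase of chondroitin sulfate, at 9525 bases from the gene and 3597 from the lncRNA gene Gm51802. It had 21.2, 28.1 and 32.8 CPM (lowest, median, highest) in unactivated KO and 1.6, 1.72 and 2.5 CPM in unactivated WT libraries. Activated libraries gave 21.6, 21.9 and 24.9 CPM in KO and 1.03, 1.62 and 1.79 CPM in WT. In both states the lowest KO library lay above the highest WT library, and the log2 changes were 3.86 ± 0.13 unactivated (SE, adjusted p = 3.81e-12) and 3.88 ± 0.13 activated (adjusted p = 2.65e-12). RNA inside Chst3 itself changed by -0.2 on the log2 scale in unactivated cells (adjusted p = 0.655) and by 0.61 in activated cells (adjusted p = 0.0457).

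Upstream of Sorl1 (chr9:42127864-42128442), which codes for a sorting receptor, a region at 3566 bases from the gene had 1.81, 1.97 and 2.54 CPM in unactivated KO and 0.147, 0.249 and 0.604 CPM in unactivated WT libraries. Activated, it had 1.38, 1.84 and 2.64 CPM in KO and 0.0871, 0.122 and 0.189 CPM in WT libraries. The groups did not overlap in either state, and the log2 changes were 2.71 ± 0.25 (adjusted p = 7.83e-07) and 3.85 ± 0.27 (adjusted p = 2.93e-08). Inside Sorl1 the log2 change was -0.09 unactivated (adjusted p = 0.826) and 0.6 activated (adjusted p = 0.00658).

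A pair of regions upstream of Atp2a3, the calcium pump SERCA3, rose together in both states. The one at chr11:72952518-72955009, 6159 bases from the gene, had 1.93, 2.31 and 2.65 CPM in unactivated KO and 0.295, 0.804 and 0.953 CPM in unactivated WT libraries, a log2 change of 1.77 ± 0.32 (adjusted p = 0.00112). In activated cells it had 1.02, 1.81 and 2.69 CPM in KO and 0.0867, 0.237 and 0.445 CPM in WT, a log2 change of 2.85 ± 0.34 (adjusted p = 1.34e-05). KO libraries lay above WT libraries in both states. The second region, at chr11:72957217-72957881, changed by 3.15 ± 0.52 unactivated (adjusted p = 0.00053) and 3.26 ± 0.53 activated (adjusted p = 0.000455). RNA inside the gene rose as well, by 0.98 ± 0.19 (adjusted p = 0.0016) and 1.51 ± 0.22 (adjusted p = 3.77e-05). The second region was chosen for description after its values were seen.

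Further regions rose in both states. By Zfp449, a zinc finger gene on chromosome X, a region had 0.747, 0.818 and 1.33 CPM in unactivated KO and 0.0334, 0.164 and 0.189 CPM in unactivated WT libraries, without overlap (log2 change 2.62 ± 0.29, adjusted p = 6.64e-06). Its change in activated cells was 2.14 ± 0.28 (adjusted p = 4.63e-05). Upstream of Asb2, a substrate receptor of cullin ubiquitin ligases, the level was 0.874 ± 0.126 CPM in unactivated KO and 0.165 ± 0.031 CPM in unactivated WT libraries (SD, n = 6), and the log2 change was 2.37 there (adjusted p = 1.53e-05) and 1.43 in activated cells (adjusted p = 0.00249). By Tmem45a2 the changes were 2.18 (adjusted p = 0.00926) and 1.68 (adjusted p = 0.046). The activated call by Tmem45a2 was lost in 11 of 12 fits that left out a library, and both of its calls were lost without the 3 WT libraries that stood apart (adjusted p = 0.0506 and 0.118). The regions by Zfp449, Asb2 and Tmem45a2 passed the filter on low counts through KO libraries, so being tested already favoured a rise.

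Downstream of Sel1l, part of the machinery that removes misfolded proteins from the endoplasmic reticulum, the rise was called in unactivated cells, where KO libraries averaged 1.49 ± 0.302 CPM and WT libraries 0.402 ± 0.0869 CPM (SD, n = 6, log2 change 1.87 ± 0.26, adjusted p = 9.95e-05). In activated cells the log2 change there was 0.62 (adjusted p = 0.233), and the difference between states was -1.25 (adjusted p = 0.146). By Tram1, a translocon protein, and by Alpk2, a kinase, the rise was called in activated cells, by 2.25 ± 0.41 for Tram1 (adjusted p = 0.00129) and 2.23 ± 0.33 for Alpk2 (adjusted p = 0.000184) on the log2 scale. The unactivated changes there were 0.89 (adjusted p = 0.194) for Tram1 and 0.81 (adjusted p = 0.164) for Alpk2.

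Regions that fell in KO lines included one 355 bases downstream of Bach2 (chr4:32586465-32589033), which codes for a repressor that holds B cells back from plasma cell fate. In unactivated cells it had 1.43, 1.47 and 3.15 CPM in KO and 4.66, 11.2 and 17.4 CPM in WT libraries, without overlap. In activated cells it had 1.54, 3.6 and 6.62 CPM in KO and 6.41, 10.9 and 17 CPM in WT libraries, where the highest KO library lay above the lowest WT library. The log2 changes were -2.58 ± 0.27 (adjusted p = 3.79e-06) and -1.58 ± 0.26 (adjusted p = 0.000612). RNA inside Bach2 moved the other way, by 0.93 ± 0.15 (adjusted p = 0.000162) and 0.53 ± 0.15 (adjusted p = 0.0192). Bach2 was the single gene in the activated comparison where region and gene were both called with opposite signs.

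Another 5 regions fell most in unactivated KO lines. Downstream of Gnat3, a G protein subunit of taste cells, the level was 0 to 0.158 CPM in unactivated KO and 0.46 to 1.17 CPM in unactivated WT libraries (log2 change -3.4 ± 0.55, adjusted p = 0.000435). Upstream of Spata7 it was 3.23 ± 1.5 CPM in unactivated KO and 9.49 ± 3.27 CPM in unactivated WT libraries, with overlap (log2 change -1.64, adjusted p = 0.000962). Downstream of Tmem176b the change was -1.51 (adjusted p = 0.0115) and in activated cells -1.27 (adjusted p = 0.0321), and both were lost without the 3 WT libraries that stood apart (adjusted p = 0.0618 and 0.0623). The activated call there was also lost in 8 of 12 fits that left out a library. By M6pr, a receptor for lysosomal enzymes, and Rragc, a GTPase of nutrient sensing, the changes were -1.38 (adjusted p = 0.00916) and -1.23 (adjusted p = 0.0161), with overlapping groups.

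In activated cells the regions that fell in KO lines included one 5356 bases upstream of Ipcef1 (chr10:7060139-7064670), at 0.527, 1.11 and 1.36 CPM in KO and 1.54, 2.26 and 3.72 CPM in WT libraries, without overlap (log2 change -1.22 ± 0.29, adjusted p = 0.0127). Downstream of Rgcc, a regulator of the cell cycle, the change was -1.31 ± 0.33 (adjusted p = 0.0202), with overlap, and leaving out a library ended the call in 5 of 12 fits.

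**Figure D3:**
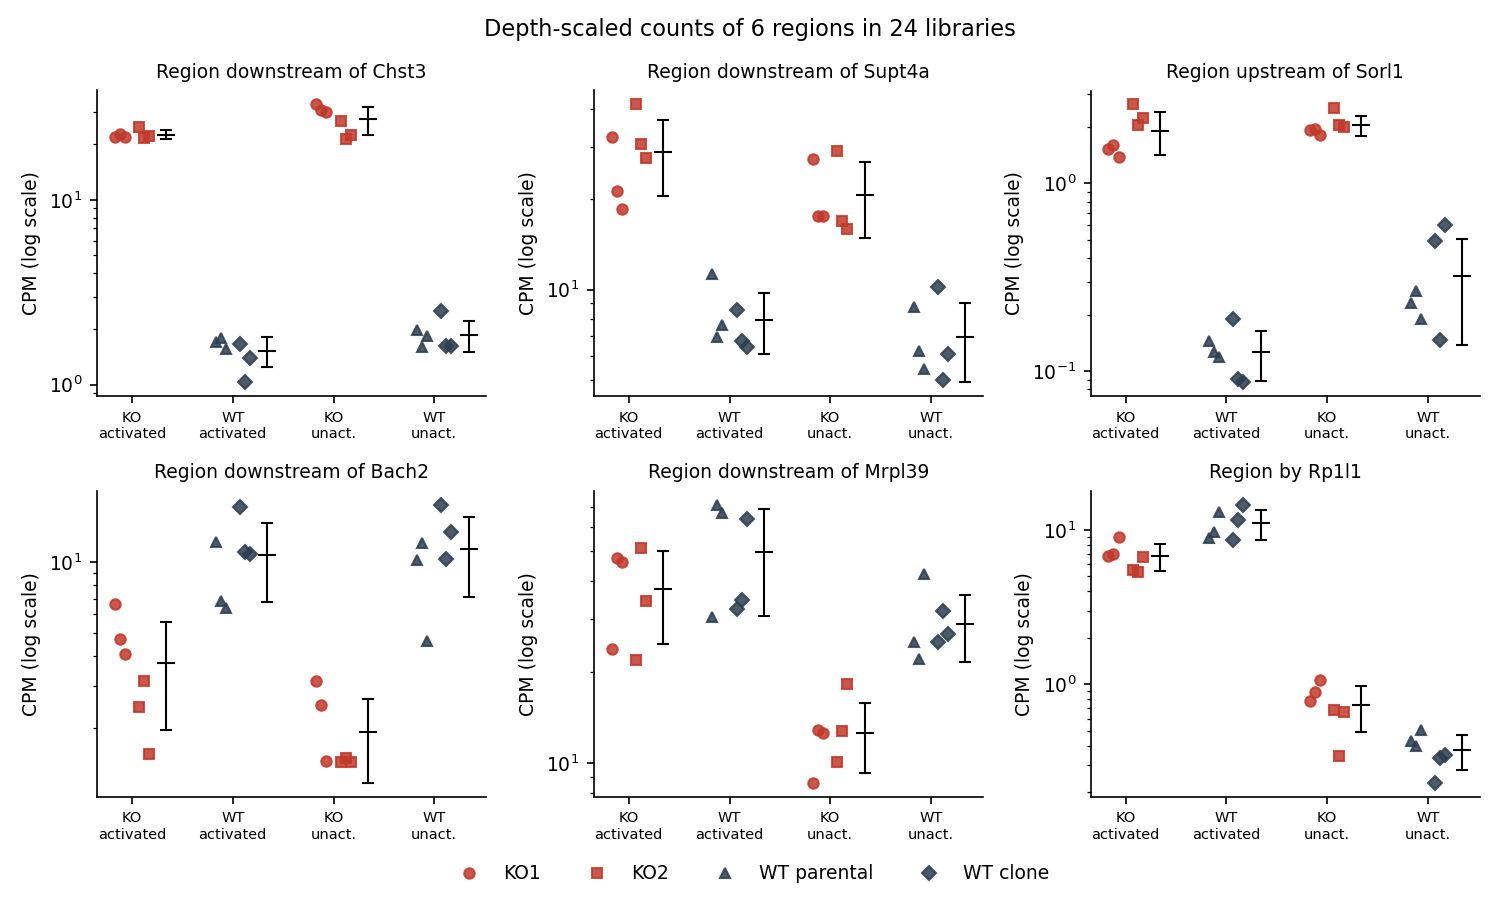
CPM on a log axis in each of 24 libraries for 6 regions, with the mean ± SD of the 6 libraries beside each group. Marker shapes give the 4 lines. KO libraries lie above WT libraries in both states by Chst3, Supt4a and Sorl1, and the activated groups lie above the unactivated groups by Rp1l1.

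The regions beside microRNA genes moved in different directions. Downstream of Supt4a (chr11:87744617-87753828), a transcription elongation factor, a region of 9212 bases ended 3035 bases short of the hairpin of Mir142, a microRNA of blood cells, whose mature arms are printed above. It had 15.9, 17.6 and 29.1 CPM in unactivated KO and 5.01, 6.17 and 10.2 CPM in unactivated WT libraries. In activated cells it had 18.6, 29.1 and 41.5 CPM in KO and 6.42, 7.3 and 11.3 CPM in WT. KO lay above WT in both states, and the log2 change was 1.58 ± 0.22 unactivated (adjusted p = 0.000116) and 1.84 ± 0.23 activated (adjusted p = 2.13e-05). Activation changed the region by 0.18 in WT lines (adjusted p = 0.647).

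Downstream of Mrpl39 (chr16:84700904-84711808), a region of 10905 bases ended 1214 bases before the lncRNA gene Mir155hg, the host of Mir155, and 2331 bases before the hairpin. miR-155 is known to be induced in activated B cells. The region had 8.61, 12.7 and 18.2 CPM in unactivated KO and 22.1, 25.9 and 42.1 CPM in unactivated WT libraries, without overlap, a log2 change of -1.21 ± 0.28 (adjusted p = 0.00906). Without the 3 WT libraries that stood apart the change was -0.99 and the call was lost (adjusted p = 0.058). In activated cells it had 21.9, 40.2 and 51.5 CPM in KO and 30.4, 49.2 and 71.2 CPM in WT libraries, which overlapped (log2 change -0.4, adjusted p = 0.56). Activation raised it by 1.59 ± 0.28 in KO lines (adjusted p = 0.000353), where activated libraries lay above unactivated ones, and by 0.78 ± 0.27 in WT lines (adjusted p = 0.0499), a call lost in 9 of 12 fits that left out a library and without the 3 libraries that stood apart (adjusted p = 0.062). The difference between the 2 activation effects was 0.81 (adjusted p = 0.485).

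A region of 7918 bases downstream of Zswim4 (chr8:84196963-84204880) lay 3637 bases from Mir23a. It had 4.28, 5.29 and 6.57 CPM in activated KO and 2.56, 3.76 and 3.94 CPM in unactivated KO libraries, a log2 change of 0.63 (adjusted p = 0.000912), and changed by 0.11 in WT lines (adjusted p = 0.615). The difference between these was not called, at 0.52 (adjusted p = 0.212). Downstream of Slamf7, a surface receptor of plasma cells, a region 417 bases from the gene had 2.33, 2.75 and 3.53 CPM in unactivated KO and 0.567, 0.9 and 1.22 CPM in unactivated WT libraries, without overlap (log2 change 1.67 ± 0.23, adjusted p = 7.13e-05). In activated cells the change was 0.8 ± 0.22 (adjusted p = 0.0361), with overlap, and it was lost in 8 of 12 fits that left out a library and without the libraries that stood apart (adjusted p = 0.0885).

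Regions next to genes of B cell identity and receptor signalling numbered 37, of which 21 were tested. In KO against WT lines, 5 rose and 1, by Bach2, fell in activated cells, with a median log2 change of 0.43, against 0.09 over all regions tested. In unactivated cells 3 rose and 1 fell, with a median of 0.07. Of all numbered regions tested, 5.67% were called higher and 1.35% lower in activated cells, and 3.75% and 2.64% in unactivated cells. The difference from these shares was not tested. Upstream of Ebf1 (chr11:44610689-44613820), a factor that commits cells to the B lineage, activated KO libraries had 1.98, 2.6 and 3.17 CPM and activated WT libraries 0.882, 1.03 and 1.57 CPM, without overlap (log2 change 1.22 ± 0.17, adjusted p = 7.84e-05). RNA inside Ebf1 rose by 0.76 (adjusted p = 0.018).

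Upstream of Cd180, a Toll-like receptor homologue of B cells, the log2 change in KO against WT lines was 1.4 activated (adjusted p = 0.000193) and 1 unactivated (adjusted p = 0.0043). By Cd83, a surface protein of activated B cells, they were 1.35 (adjusted p = 0.000874) and 0.88 (adjusted p = 0.0275). By Cd52 the activated change was 0.65 (adjusted p = 0.0352). Of the same genes, 2 further regions downstream of Cd180 were not called (log2 changes of -0.07 and 0.04 activated and -0.69 and -0.14 unactivated), nor was a second region by Cd83 (adjusted p = 0.0826 activated and 0.321 unactivated). The called regions by Cd180, Cd83 and Cd52 were named after their values were seen, and those by Cd180 and Cd83 did not pass in the effect of activation in WT lines (adjusted p = 0.124 and 0.0692).

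Other groups of neighbouring genes held few called regions. The shares of all numbered regions called between genotypes were 3.75% higher and 2.64% lower unactivated, and 5.67% higher and 1.35% lower activated. By plasma cell regulators 2 of 8 regions were tested and 1, at Slamf7, rose in each state. Next to class switch recombination factors 12 regions were found, 8 were tested, and 0 were called in any of the 4 comparisons by edgeR or DESeq2. At an unadjusted p under 0.05 there were 0 between genotypes in either state and 2 on activation. The median log2 changes in KO against WT lines were 0.26 unactivated and 0.31 activated. By AP-1 and immediate early genes 9 of 20 were tested. A region by Egr1, an immediate early transcription factor, had 1.83, 2.91 and 3.83 CPM in activated KO and 0.756, 1.01 and 1.76 CPM in activated WT libraries, without overlap (log2 change 1.34 ± 0.24, adjusted p = 0.00113). In unactivated cells 0 of these 9 were called by either tool, and 1 had an unadjusted p under 0.05. Next to genes with ribosomal protein names, among which the list also holds the kinase gene Rps6ka1, 22 of 30 were tested and 0 were called between genotypes by edgeR or DESeq2, with 5 at an unadjusted p under 0.05 in each state. Among 23 tested regions by cytokines, chemokines and their receptors, 2 rose in unactivated KO lines, by Tnfrsf8 (CD30, log2 change 1.5, adjusted p = 0.0157) and Tnfrsf9 (4-1BB, log2 change 1.38, adjusted p = 0.0327). DESeq2 called 1 of the 23 there. In activated cells edgeR called 0 of these 23, DESeq2 called 2, and 6 had an unadjusted p under 0.05. Next to MYC and ribosome biogenesis genes 1 of 2 regions was tested, next to CD40 and NF-kB targets 6 of 16, next to TGF-beta and SMAD targets 3 of 8 and next to apoptosis and checkpoint genes 8 of 9. Between genotypes edgeR called 0 of these in either state. DESeq2 called 1, next to a TGF-beta or SMAD target in activated cells, and an unadjusted p under 0.05 was found for that kind once and for an apoptosis or checkpoint gene once. Next to canonical histone genes 3 regions were found and 0 passed the filter.

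Activation was compared in WT lines next. In activated against unactivated cells, 106 regions, 9.4%, rose and 54, 4.79%, fell. The background was 10% higher and 10.2% lower for all targets, and 14.3% higher and 4.91% lower for numbered regions, so fewer of the regions near genes were called higher than of regions in general, a difference that was not tested. The median log2 change was 0.16, against 0.23 over all regions. In KO lines 147 rose, 13%, and 36 fell, 3.19%, where the background was 10.9% higher and 8.73% lower for all targets and 19.6% higher and 3.52% lower for numbered regions. The median log2 change there was 0.24, against 0.34 over all regions. Called changes in WT lines ran between 0.39 and 5.23 upwards and between -3.48 and -0.48 downwards, and 25 regions rose and 14 fell in each WT line alone. For calls in each line alone, the share over all numbered regions was not worked out.

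A region by Rp1l1 (chr14:64037349-64038170), a gene of photoreceptors, lay 3842 bases from it. It had 8.6, 10.6 and 14.5 CPM in activated WT and 0.23, 0.375 and 0.504 CPM in unactivated WT libraries, a log2 change of 4.89 ± 0.21 (adjusted p = 1.89e-11). Activated KO libraries had 5.37, 6.69 and 9.05 CPM and unactivated KO libraries 0.342, 0.731 and 1.06 CPM, a log2 change of 3.21 ± 0.19. Activated libraries lay above unactivated ones in both genotypes.

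Downstream of Slc10a7 (chr8:78738374-78741275) the level was 1.84 ± 0.636 CPM in activated WT and 0.157 ± 0.136 CPM in unactivated WT libraries, without overlap (log2 change 3.71 ± 0.42, adjusted p = 2.78e-06). Upstream of Ipcef1 it was 2.43 ± 0.848 CPM in activated WT and 0.307 ± 0.123 CPM in unactivated WT libraries, without overlap, with a log2 change of 2.99 ± 0.32 for the region and 3.14 for RNA inside the gene (adjusted p = 1.2e-06 and 0.00147). Upstream of Otulin, a deubiquitinase of linear chains in NF-kB signalling, the change was 2.56 ± 0.39 (adjusted p = 8.26e-05). Downstream of Skap2 the fitted change was 5.23 ± 1.37 (adjusted p = 0.011), on levels of 0 to 0.332 CPM in unactivated WT libraries that overlapped the activated ones.

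Both sides of Bcl2a1b, an NF-kB induced survival gene, rose on activation. The upstream region (chr9:89197384-89197873) had 0.126, 0.305 and 0.436 CPM in activated WT and 0, 0.0322 and 0.0667 CPM in unactivated WT libraries (log2 change 3.48 ± 0.71, adjusted p = 0.00182). The downstream region (chr9:89208646-89209527) had 0.32, 0.51 and 0.973 CPM in activated WT and 0, 0.0806 and 0.332 CPM in unactivated WT libraries (log2 change 2.51 ± 0.66, adjusted p = 0.0105). The upstream groups did not overlap and the downstream groups did. RNA inside Bcl2a1b rose by 1.92 ± 0.2. This gene has near-identical copies, among which kallisto divides reads, so these counts are uncertain.

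By CD40 and NF-kB target genes 4 of 6 tested regions rose and 0 fell, with a median log2 change of 1.12, where 14.3% of all numbered regions rose and their median was 0.23. DESeq2 also called 4. The regions were the 2 at Bcl2a1b, one upstream of Ccl22, a chemokine (log2 change 1.04 ± 0.22, adjusted p = 0.00179), and one 433 bases downstream of Tnfaip3, the NF-kB inhibitor A20 (log2 change 1.2, adjusted p = 0.00299). The 2 at Bcl2a1b passed the filter on low counts through activated libraries, so being tested already favoured a rise. Only 6 of the 16 regions of this list were tested, and their share was not tested against that of all regions. By MHC class II and presentation genes 3 of 6 rose and 0 fell, with a median of 0.68, and DESeq2 called 2. Downstream of H2-Eb2 (chr17:34345980-34349896) activated WT libraries had 11.5, 13 and 15.7 CPM and unactivated WT libraries 5.26, 6.77 and 7.1 CPM, without overlap (log2 change 1.04 ± 0.12, adjusted p = 2.32e-06). The transcribed pseudogene H2-Ea lay nearer to this region than H2-Eb2, at 1334 bases. By H2-Ab1 the change was 1.23 ± 0.18 (adjusted p = 5.63e-05).

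Next to genes of B cell identity 2 of 21 regions rose, one of them by Cd52, and 1 fell, and next to AP-1 and immediate early genes 1 of 9 rose and 1, upstream of Batf3, fell. Over all numbered regions tested, 14.3% rose and 4.91% fell.

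Upstream of H2-Aa (chr17:34291397-34301733), the region between H2-Aa and H2-Eb1, which code for chains of class II molecules, had 22.9, 24.9 and 36.6 CPM in activated WT and 13.7, 22.5 and 23.6 CPM in unactivated WT libraries, with overlap (log2 change 0.39 ± 0.13, adjusted p = 0.0463). That call was lost in 7 of 12 fits that left out a library and without the 3 WT libraries that stood apart (adjusted p = 0.117). Activated KO libraries had 32.6, 39.9 and 50.5 CPM, above activated WT with overlap (log2 change 0.58 ± 0.13, adjusted p = 0.0103). Among cytokine and receptor genes 6 of 23 rose on activation and 1, upstream of Tnfrsf13b (TACI), fell (log2 change -1.15 ± 0.16, adjusted p = 3.96e-05). The shares over all numbered regions were 14.3% higher and 4.91% lower, and the difference was not tested. By Skil, a SMAD corepressor, a region rose by 1.65 ± 0.44 in WT lines (adjusted p = 0.0111). Regions by Btg1, an antiproliferative gene, and Ccnd1, cyclin D1, changed by 1.99 ± 0.53 (adjusted p = 0.0107) and -1.07 ± 0.35 (adjusted p = 0.035), and the second call was lost in 6 of 12 fits that left out a library and without the libraries that stood apart (adjusted p = 0.0901). Downstream of Rpl38 the change was -0.61 ± 0.19 (adjusted p = 0.0256), lost in 5 of 12 such fits and without those libraries (adjusted p = 0.0634).

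Among the regions that fell on activation was one upstream of Cd300a, an inhibitory receptor. Activated WT libraries had 0.0871, 0.196 and 0.314 CPM and unactivated WT libraries 0.592, 1.04 and 1.4 CPM, without overlap (log2 change -2.42 ± 0.27, adjusted p = 2.36e-06). In KO lines the region fell by 2.5 on the log2 scale. Downstream of Pdcd1, which codes for PD-1, the level was 0.0954 ± 0.0832 CPM in activated WT and 0.568 ± 0.139 CPM in unactivated WT libraries (log2 change -2.53 ± 0.51, adjusted p = 0.00122). Upstream of Rgs13, a germinal centre regulator of G protein signalling, the change was -2.5 ± 0.47 (adjusted p = 0.000719), and by Cd14, a coreceptor for lipopolysaccharide, it was -1.92 ± 0.39 (adjusted p = 0.0013). Upstream of Zfp101 it was -1.67 ± 0.27 (adjusted p = 0.00016) and downstream of Gnat3 -2.51 ± 0.51 (adjusted p = 0.00139).

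The level of a region and RNA inside its gene were set side by side for 431 regions at 397 genes with values for both. Signs were equal in 66.4% of pairs for activation in WT lines, 59.4% for KO against WT in activated and 55.7% in unactivated cells. Across pairs, which share libraries and depth, Pearson's r was 0.45, 0.31 and 0.2, given as a description. Where region and gene were both called, signs were equal in 31 of 35 pairs for activation, 10 of 11 for activated and 6 of 8 for unactivated KO against WT lines. The opposite pairs in unactivated cells were Bach2 and Grap, an adaptor protein, where the region by the gene changed by 1.22 ± 0.11 (adjusted p = 5.58e-07) and RNA inside it by -0.69 ± 0.18 (adjusted p = 0.014). For activation they were Mgll, Myh9, Plac8 and Plek, and the call of the region by Plac8 was lost without the 3 libraries that stood apart (adjusted p = 0.127). Downstream of Irf2, an interferon regulatory factor, region and gene rose together in KO lines, by 1.51 ± 0.14 and 0.95 ± 0.14 in activated cells. Regions sharing a nearest gene moved in 1 direction wherever more than 1 was called, at 4 genes in unactivated and 2 in activated KO against WT lines and at 3 on activation. Gene values are sums over regions wholly inside the gene and describe part of its RNA, not its mRNA.

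**Figure D4:**
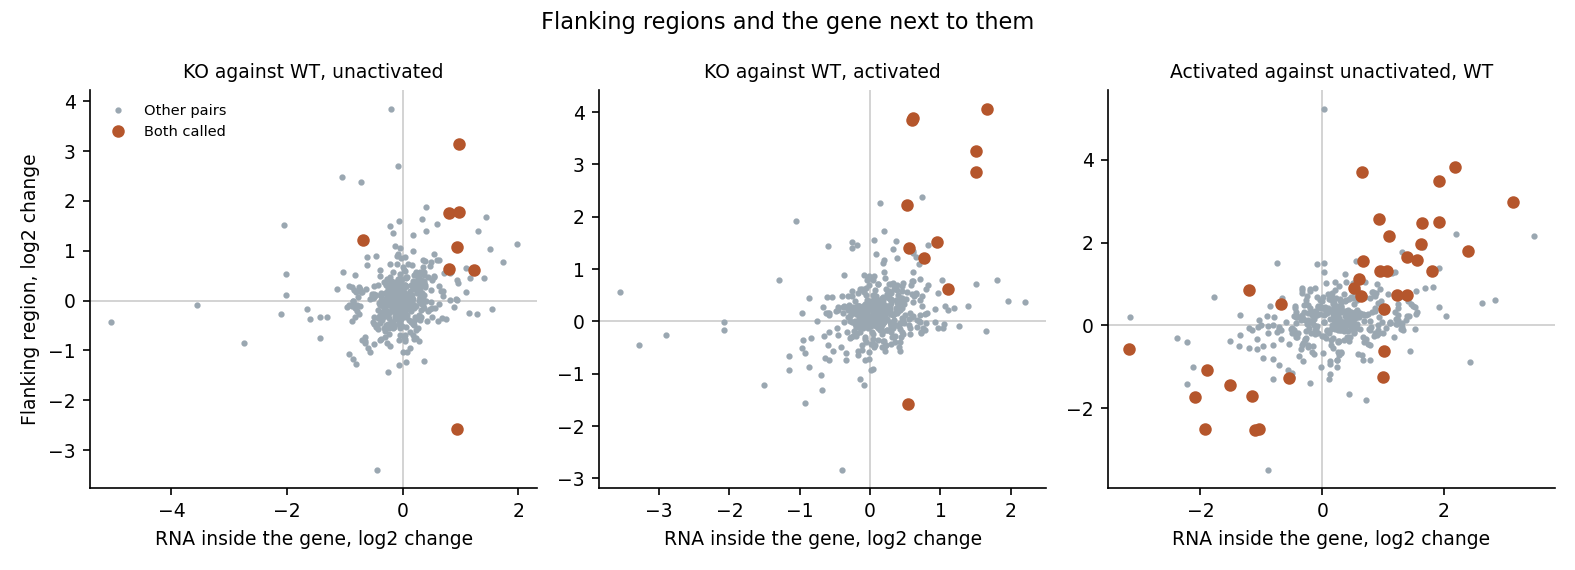
Log2 change of the flanking region (vertical) against that of RNA inside the nearest gene (horizontal) for 431 pairs in 3 comparisons, with pairs called on both axes drawn larger. In activation, 31 of 35 such pairs lie in the quadrants of equal sign.

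Whether activation acted differently in KO lines was tested as the activation effect in KO minus that in WT lines. Of 1128 regions, 5 were higher, 0.443%, and 3 lower, 0.266%. The background was 0.766% higher and 0.388% lower for all targets, and 0.568% higher and 0.178% lower for numbered regions. At an unadjusted p under 0.05 there were 87, or 7.71% of those tested, against 8.68% of all numbered regions. No neighbour list had a called region here by edgeR or DESeq2. The region by Rp1l1 rose less on activation in KO lines, by -1.68 ± 0.26 on the log2 scale (adjusted p = 0.00182), and its call and that of the region by Rb1cc1 held in all 24 fits that left out 1 library. The calls of the other 6 were lost in 16 to 22 of 24 such fits. By Rp1l1 the log2 change in KO against WT lines was -0.72 ± 0.17 in activated cells (adjusted p = 0.0128) and 0.95 ± 0.19 in unactivated cells (adjusted p = 0.00336). Downstream of Rnf145, a ubiquitin ligase, activated libraries had 0.289, 0.363 and 0.54 CPM in KO and 0.549, 0.988 and 1.19 CPM in WT, and unactivated libraries 0.362, 0.456 and 0.682 CPM in KO and 0.35, 0.48 and 0.516 CPM in WT (difference -1.3 ± 0.3, adjusted p = 0.0398).

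Downstream of Inf2, a formin, the activation effect was larger in KO lines by 0.87 ± 0.2 (adjusted p = 0.0429), with 1.33 to 1.62 CPM in activated KO and 0.61 to 1.25 CPM in activated WT libraries. Downstream of Abtb1 it was larger by 1.17 ± 0.27 (adjusted p = 0.0434). The other 4 had means under 0.5 CPM over the 6 libraries of each genotype and state, which puts them outside the naming rule. By Cd93, a surface receptor kept by long-lived plasma cells, activated libraries had 0.122, 0.252 and 0.444 CPM in KO and 0, 0.0144 and 0.0942 CPM in WT (difference 2.66 ± 0.58, adjusted p = 0.0476). By Rb1cc1, an autophagy gene, it was 3.59 ± 0.73 (adjusted p = 0.0176), upstream of Ssbp4 1.76 ± 0.42 (adjusted p = 0.0464) and downstream of Scaf11 -1.59 ± 0.38 (adjusted p = 0.0488). The regions by Cd93 and Rb1cc1 passed the filter on low counts through KO libraries, so being tested already favoured high KO levels. Without the 3 WT libraries that stood apart, the calls by Rnf145, Inf2, Abtb1, Ssbp4 and Scaf11 were lost (adjusted p = 0.0799, 0.128, 0.145, 0.0622 and 0.0701).

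**Figure D5:**
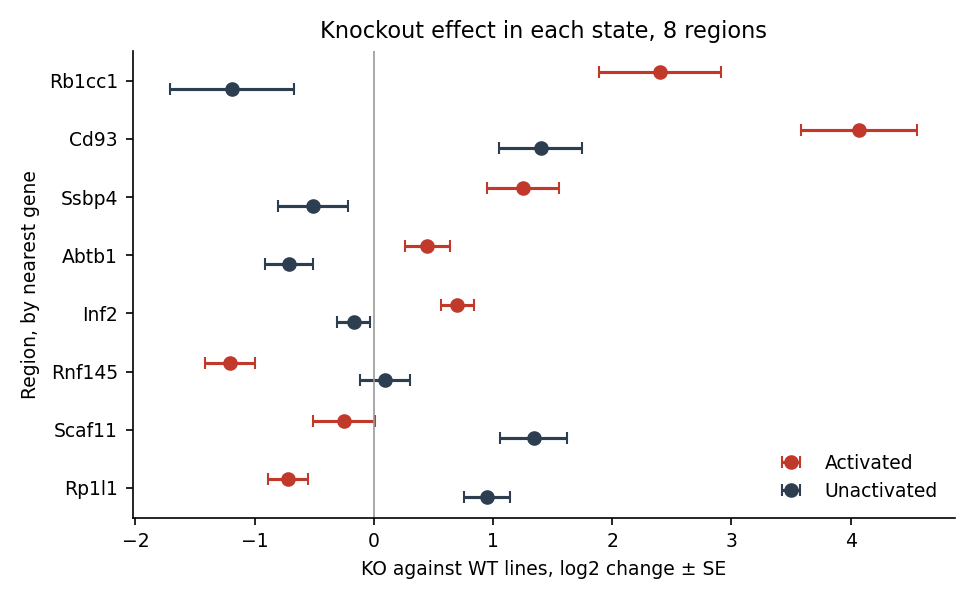
Log2 change of KO against WT lines ± SE in activated and unactivated cells for the 8 regions whose difference between states was called. The points by Rp1l1 lie at -0.72 in activated and 0.95 in unactivated cells.

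The 6 regions of each side with the highest mean CPM differed in level per length, and regions were not ranked per length. Upstream of genes they were at 43.1 CPM per kb by Mmp10 (654 bases), 26.2 by Acap2 (566 bases) and 9.85 by Spata7 (695 bases). The long regions upstream of H2-Aa, Fam167b and Plac8 stood at 2.74, 2.04 and 1.98 CPM per kb. Downstream, Plk2 stood at 66.1 (881 bases), Tmco1 at 33.1, Mrpl39 at 2.95, H2-Eb2 at 2.57, Chst3 at 2.2 and Supt4a at 1.75 CPM per kb. Downstream of Plk2, a polo-like kinase, the level was 33.8, 44.4 and 74.6 CPM in unactivated KO and 60.5, 93.6 and 172 CPM in unactivated WT libraries, with overlap (log2 change -1.06 ± 0.14, adjusted p = 6.17e-05), and it was lower by 0.66 in activated cells (log2 change -0.66 ± 0.14, adjusted p = 0.00569). Upstream of Mmp10, a matrix metalloproteinase, the level was 19.9, 23.2 and 26.6 CPM in activated WT and 32.7, 35.7 and 41.2 CPM in unactivated WT libraries, without overlap (log2 change -0.66 ± 0.06, adjusted p = 4.72e-07). In activated cells it was lower in KO (log2 change -0.31 ± 0.06, adjusted p = 0.00415). The region by Acap2 was called in none of the 4 comparisons and neither was that by Fam167b (edgeR, adjusted p of 0.0519 and above). Short regions can share sequence with repeats or small RNAs elsewhere, between which kallisto divides reads. Its part in these levels was not tested, as the genome sequence of the regions was not used here.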

How the data were processed

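Total RNA of CH12 cells was depleted of ribosomal RNA and sequenced single-end with a stranded kit, per the labels' protocols. The authors deposited the estimated counts of each library without normalization. Kallisto 0.43.0, DESeq2 and the build GRCm38.p5 are named in the submitters' processing notes. No source used here defines the numbered regions or gives the strand used in counting. The other 9 samples of the series were not analysed here. Some single results are not reported here.

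Estimated counts were rounded, scaled by edgeR's TMM factors, filtered with edgeR's filterByExpr by group and fitted in 1 quasi-likelihood model with 8 group means (edgeR 4.0.16, R 4.3.3). On simulated data this fit missed many of the changes made in these faint regions. All 24 libraries and 61074 targets entered, p-values were adjusted over all of them (Benjamini-Hochberg), and a region was called at an adjusted p under 0.05. P-values measure the spread between repeat cultures within each line and state, not the spread between lines. An effect of genotype therefore cannot be told apart from clone differences. The SE beside a log2 change is the size of that change divided by the square root of the test's F statistic. It is unreliable where the change is small or counts are few. Levels are CPM, and CPM per kb where regions are compared. Positions are 1-based and distances count the bases between region and gene in RefSeq's GRCm38.p6 table. Side needs the strand of the gene, given for 17492 of 21900 protein-coding genes.

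The members and the gene lists were chosen with earlier results of these data known. Named regions are, in each comparison, the 6 highest and 6 lowest log2 changes among called regions whose mean reached 0.5 CPM in some group of that comparison, with the same sign in every pairing of lines, and by a gene whose name is neither Gm nor Rik. To these come the 6 regions of each side with the highest mean CPM, up to 2 called per gene list, and regions named after their values were seen, as said beside them and as holds for 4 with a called difference between states, Grap, Irf2, Cd180, Cd83, Cd52, Tnfaip3, Tnfrsf8 and Tnfrsf9 and those beside microRNAs. Motif shares in the regions themselves, planned, were not run without a genome sequence, and promoters were searched in their place.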

Additional observations from a re-analysis of the deposited data

Results flagged for a closer look

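The knockout effect differed between states, by the test of the difference in activation effects (edgeR's quasi-likelihood test, Benjamini-Hochberg adjustment), for 8 regions of 1128, 5 higher (0.443%) and 3 lower (0.266%), against 0.568% higher and 0.178% lower over all numbered regions. Of the 8 calls, 6 were lost in 16 to 22 of 24 fits that left out 1 library, 5 were lost without the 3 WT libraries that stood apart, and 0 were made with counts summed per line. The values are the effect in activated minus that in unactivated cells on the log2 scale. It was 3.59 ± 0.73 (SE) by Rb1cc1 (adjusted p = 0.0176), with 0.26 to 0.465 CPM in activated KO and 0 to 0.173 CPM in activated WT libraries. It was 2.66 ± 0.58 by Cd93 (adjusted p = 0.0476), 1.76 ± 0.42 by Ssbp4 (adjusted p = 0.0464), 1.17 ± 0.27 by Abtb1 (adjusted p = 0.0434) and 0.87 ± 0.2 by Inf2 (adjusted p = 0.0429). It was negative by Rp1l1, at -1.68 ± 0.26 (adjusted p = 0.00182), by Scaf11, at -1.59 ± 0.38 (adjusted p = 0.0488), and by Rnf145, at -1.3 ± 0.3 (adjusted p = 0.0398).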

How the results depend on the processing

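In unactivated KO against WT lines 75 regions were called, and the count was 47 for KO1 alone, 45 for KO2 alone, 43 against parental WT alone, 8 with counts summed per line, 46 with the clone as the only WT line, 49 without the low-count filter and 49 with only the libraries of the comparison. In activated KO against WT lines 68 were called, and the count was 36 for KO1 alone, 29 against parental WT alone, 5 with counts summed per line, 39 for distances under 5000 bases, which leaves fewer regions, and 104 when regions were fitted without transcripts, an alternative chosen after seeing the data. For activation in WT lines 160 were called, with 61 in parental WT alone, 76 in the WT clone alone and 56 with counts summed per line. For the difference in activation effects 8 were called, with 15 by DESeq2 (11 higher, 4 lower), 1 for KO1 alone, 2 for KO2 alone, 0 with counts summed per line, 2 without the low-count filter and 5 (2 higher, 3 lower) with relative log expression scaling. Fits with fewer lines or summed counts rest on fewer libraries, and for the others the cause was not tested. Leaving out 1 library gave 60 to 71, 50 to 62, 132 to 184 and 2 to 6 calls in the same order of comparisons.

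Same-numbered libraries did not deviate together (median correlation 0.033, between -0.234 and 0.192 over 84 pairs), and with a replicate block 80, 72, 166 and 8 regions were called. Without the 3 WT libraries that stood apart, also chosen after seeing the data, the counts were 72, 67, 172 and 6. Changes taken by the naming rule had to show an equal sign in every line or pairing of lines. Their sign in the single-line fits was fixed by that choice. Of 88 called changes of named regions none reversed sign under any alternative run. They kept their call in 84 of 85 cases with DESeq2, 83 of 88 with relative log expression scaling, 86 of 88 with the block and 70 of 88 without the 3 libraries, but in 22 of 88 with counts summed per line, 70 of 88 without the low-count filter, 65 of 75 with only the libraries of the comparison, 32 of 55 for KO1 alone, 37 of 55 for KO2 alone, 30 of 47 against parental WT alone, 38 of 47 against the WT clone alone, 17 of 33 in parental WT alone and 22 of 33 in the WT clone alone, and 68 of 88 kept it whichever library was left out. The difference in activation effects uses all libraries, so a fit on its own libraries was the same fit. Most regions held few counts, so an uncalled region is not shown to be unchanged.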

Other observations

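Regions at the same gene were called together at Gna11 and Nek2 as well as Atp2a3 and Tmem176b in unactivated KO against WT lines, at Lpin1 and Atp2a3 in activated KO against WT lines, and at Nek2, Secisbp2l and Bcl2a1b on activation, out of 61 genes with more than 1 tested region. Upstream of Tnfrsf8, the region was higher by 1.5 in unactivated KO lines and by 1.49 on activation in WT lines on the log2 scale, while RNA inside the gene changed by -0.21 and -0.08.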
